A study of Mus musculus with 6 samples.

Results

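The Hox genes are the homeobox transcription factors of the 4 Hox clusters, and they were taken as every gene whose symbol in the array annotation is Hox followed by a cluster letter and a paralogue number. Of 39 such genes in the mouse gene table, 33 had a probe set of their own among 18193 genes on the arrays. Of these 33 members, 23 lay above the filter on dim genes and were among the 12735 genes tested. The other 6 genes had no probe set that named them alone and are not described here, and 3 probe sets shared by a pair of Hox genes were not used. The samples were bladders of mouse embryos at embryonic day 18.5, with 3 arrays of Get1 -/- (null) bladders and 3 arrays of Get1 +/- (heterozygous) bladders. Get1 is the gene now named Grhl3, which encodes a transcription factor of the grainyhead family that acts in surface epithelia. The control animals also carried 1 mutant allele. How the allele was made, the strain, and whether an array held 1 bladder or a pool are stated neither in the labels nor in the series description.

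Hox genes stand in order along each cluster, and genes at the 3′ end (low paralogue numbers) are expressed in more anterior parts of the embryo than genes at the 5′ end (high numbers). Cells keep this code after the body axis is laid down, so the Hox genes of a tissue tell from which level of the body it comes. The bladder forms from the cloaca at the posterior end of the trunk, and in mouse embryos the group 13 genes Hoxa13 and Hoxd13 are needed for the cloaca, hindgut and urogenital sinus to form normally. Hox proteins bind DNA together with Pbx and Meis cofactors, and their clusters are silenced by Polycomb complexes and kept active by trithorax proteins.

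As a check of the labels, the Grhl3 probe set read 76.6, 21.5 and 120 signal units on null arrays 1 to 3, against 143, 133 and 126 on heterozygous arrays 4 to 6. The groups did not overlap, but the difference of −0.95 on the log2 scale did not pass the test over all genes (adjusted p = 0.655, limma), and where the probe set lies relative to the mutation is not given. The summed signal of 9 smooth muscle markers was 173174 to 201318 in null and 134496 to 175623 in heterozygous bladders. That of 11 urothelial markers was 14818 to 16829 in null and 18279 to 27320 in heterozygous bladders, and that of 15 intestinal markers was 13437 to 23289 in null and 824 to 1267 in heterozygous bladders. The urothelial markers did not share a direction. Of the 11, 8 were lower in null bladders and 3 were higher, Krt5, Trp63 and Krt7. Of the 11, 3 were called lower (adjusted p under 0.05, limma), where 0.51% of all genes tested were called in either direction. In whole bladders, fewer cells of a type and less RNA per cell cannot be told apart. All levels below are log2(signal + 16), differences are null minus heterozygous, and errors of means are SDs over 3 arrays.

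None of the 23 Hox genes passed the test over all genes, where 0.51% of genes did (adjusted p under 0.05, limma). Adjusted p lay between 0.260 for Hoxb13 and 0.997 for Hoxb4. At an unadjusted p under 0.05 there were 3 Hox genes with a lower level in null bladders, Hoxa5, Hoxc9 and Hoxd9 (13% of the 23, against 4.3% of all genes tested). In the other direction there was 1, Hoxb13 (4.35%, against 3.63% of all genes tested). Titles number the bladders with a pair of figures, and null 1 alone has 1 as its first figure, where the remaining 5 arrays have 2. The labels do not say what this figure stands for. Null 1 was the lowest of the 6 arrays for 11 of the 23 Hox genes, and heterozygous 6 was the highest for 10. Such counts were not made over all genes. The same arrays were also the extremes over all genes tested. There the median deviation from the heterozygous mean was −0.071 on null 1 and 0.055 on heterozygous 6, beside −0.49 and 0.063 for the Hox genes. Differences were below 0 for 17 of the 23 (73.9%, against 54.9% of all genes tested), and their median was −0.27, beside −0.03 for all genes tested. The lower count depended on null 1 and on heterozygous 6. Without null 1, 0 Hox genes had an unadjusted p under 0.05 in that direction, against 2.8% of all genes tested. Without heterozygous 6 there was 1, against 3.85% of all genes tested. When either array was left out, 15 of 23 differences were below 0, and the count was also 15 without heterozygous 5. It was 17 to 19 when any other array was left out. Over all genes tested the share below 0 was 51.3% without null 1, 52.4% without heterozygous 6 and 56.1% without heterozygous 5. Whether null 1 was handled apart from the remaining 5 cannot be told from the labels. In the map of the 4 clusters, the 5 Hoxc genes tested all have a difference below 0, and Hoxb13 and Hoxb9 are the 5′ genes with a difference above 0.

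**Figure D1:**
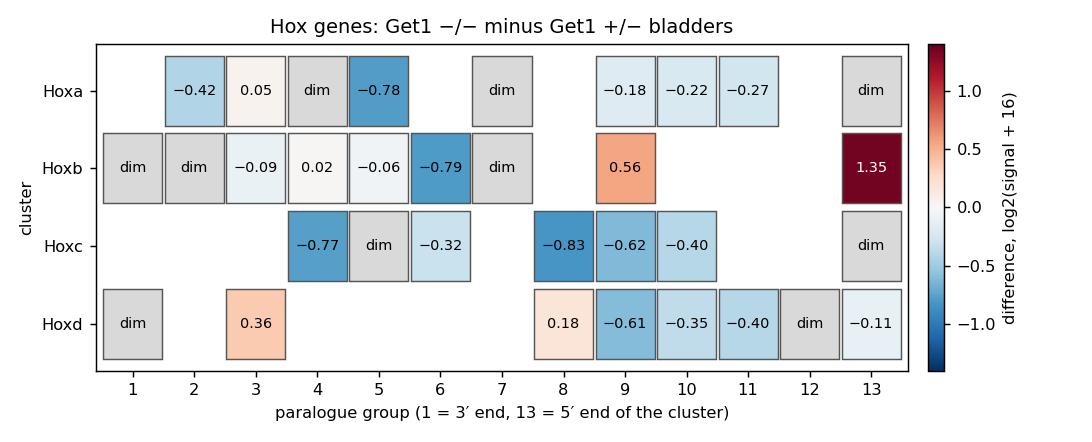
Map of the 33 Hox genes with a probe set of their own, with clusters in rows and paralogue groups from the 3′ to the 5′ end in columns. Colour and number give the difference of the log2 level, Get1 -/- minus Get1 +/- (3 arrays each); grey genes were dim and not tested. Hoxb13 stands out at 1.35, and all 5 Hoxc genes tested lie between −0.83 and −0.32.

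Groups were separate, with every null array below every heterozygous array, for 4 of the 23 Hox genes, Hoxc4, Hoxc9, Hoxd9 and Hoxd11 (17.4%, against 7.36% of all genes tested). They were separate the other way for 1, Hoxb13 (4.35%, against 6.07%). By position along the clusters, the 6 genes tested of groups 1 to 4 had a median difference of −0.04, with 3 below 0. The 6 of groups 5 to 8 had a median of −0.55 with 5 below 0, and the 11 of groups 9 to 13 had a median of −0.27 with 9 below 0. These medians are descriptions, and the positions were not tested against each other.

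**Figure D2:**
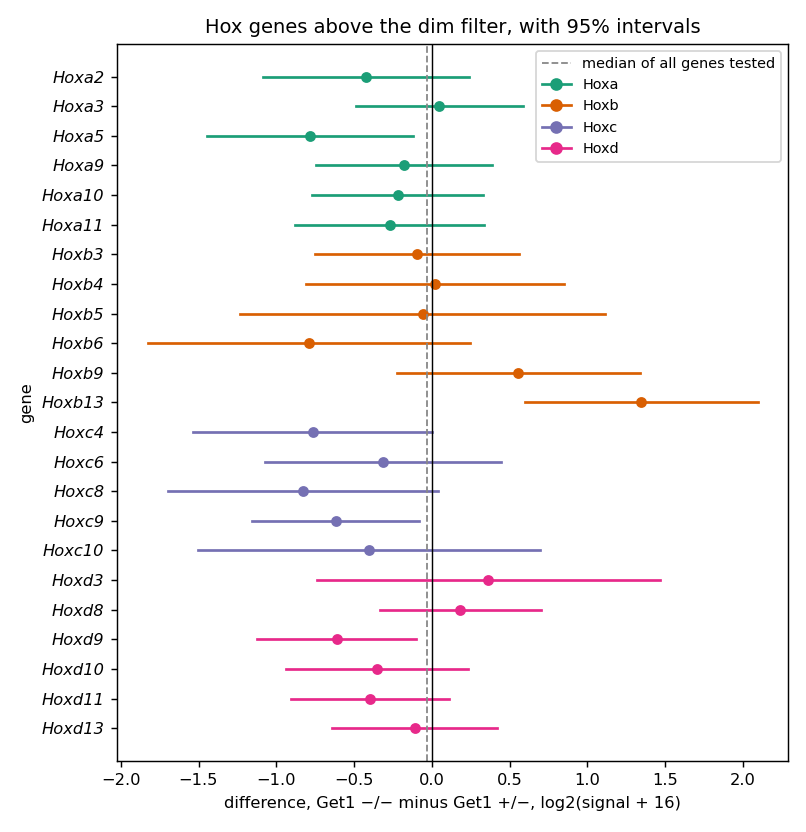
Difference of the log2 level, Get1 -/- minus Get1 +/- (horizontal axis), for the 23 Hox genes above the dim filter, with 95% intervals from limma (bars, unadjusted); the dashed line is the median of all genes tested, −0.03. The intervals of Hoxa5, Hoxc9 and Hoxd9 lie below 0 and that of Hoxb13 lies above 0, and the other 19 include 0.

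Group 13, the most posterior of the code, was measured by 1 probe set above the dim filter in the B cluster and 1 in the D cluster. Hoxb13, which in mouse is expressed in the hindgut, the urogenital sinus and later the prostate, had a signal of 107, 192 and 277 on null arrays 1 to 3, against 66.0, 56.9 and 59.8 on heterozygous arrays 4 to 6. All null arrays were above all heterozygous arrays, and the null arrays spread far more than the heterozygous ones. The mean log2 level was 7.61 ± 0.63 over the null arrays and 6.26 ± 0.09 over the heterozygous arrays (SD, n = 3 each), a 2.54-fold difference. On the log2 scale this was 1.35 (SE 0.32, 95% interval 0.60 to 2.10), which did not pass over all genes (adjusted p = 0.260, limma), with an exact permutation p of 0.1, the smallest that 3 against 3 arrays allow. Over 15 alternatives the difference lay between 0.98 and 1.68 and the adjusted p between 0.0678 and 0.558, the lowest without null 1.

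As a list, markers of intestinal epithelium were high on the same arrays. Their summed signal was 13437, 21384 and 23289 on null arrays 1 to 3, against 853, 824 and 1267 on heterozygous arrays 4 to 6. Null 1 was the lowest of the null arrays for Hoxb13 and for this sum, to which Tff3, a goblet cell peptide, gave 6710, 11177 and 11787. The order of the null arrays differed among the markers, and Cdx2 was highest on null 2 and lowest on null 3. All 15 markers had a probe set, 12 were tested and 8 rose (adjusted p under 0.05, limma), where 0.51% of all genes tested passed in either direction. The others tested had overlapping groups. Fabp2, Apoa4 and Slc26a3 had differences above 0, and Krt20 was lower in null bladders (−0.35). Among the dim markers Isx and Car1 overlapped between groups and Cdx1 did not. Tff3 read 21.7 to 52.3 on the heterozygous arrays. The part of these cells in the Hoxb13 difference was not tested.

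Hoxd13, which patterns the digits, the genital tubercle and the hindgut sphincter in mouse, read 2876, 3813 and 3424 on the null arrays, against 4315, 3537 and 3097 on the heterozygous arrays. The ranges of both groups overlapped. The difference was −0.11 with a 95% interval of −0.64 to 0.42 (adjusted p = 0.954, limma), and it was 0.017 without heterozygous 4. A second, dim Hoxd13 probe set read 7.14 to 23.5 on the null arrays and 1.13 to 4.30 on the heterozygous arrays, and averaging both gave a difference of 0.26.

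Hoxa13 and Hoxc13 were dim and not tested. Hoxa13, a gene of the cloaca and the autopod, read 22.2, 21.9 and 10.8 on the null arrays, against 28.7, 6.65 and 27.6 on the heterozygous arrays. Hoxc13, a gene of hair and nail, read 2.51, 9.74 and 21.7 on the null arrays, against 1.69, 55.6 and 25.1 on the heterozygous arrays. In both genes the groups overlapped, and all but 1 reading lay under the filter limit of 39.8. That limit sets which genes were tested and is not a detection limit. Readings this low and this spread say little about a difference in either direction.

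In the C cluster 7 genes had a probe set and 5 were tested. Hoxc genes pattern vertebrae and spinal motor neurons of the thoracic and lumbar levels in mouse. All 5 differences were below 0, from −0.83 for Hoxc8 to −0.32 for Hoxc6, with a median of −0.62, and 0 passed over all genes (adjusted p from 0.554 to 0.902, limma). Hoxc8, needed for the normal form of thoracic vertebrae, had a signal of 95.5, 228 and 105 on the null arrays, against 175, 243 and 356 on the heterozygous arrays. Null 2 lay among the heterozygous arrays, and null 1 and null 3 below all of them. The mean log2 level was 7.22 ± 0.62 over the null arrays and 8.04 ± 0.48 over the heterozygous arrays (SD, n = 3 each), with a 95% interval of the difference from −1.70 to 0.04 (adjusted p = 0.641, limma).

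Hoxc9, which marks the thoracic level and holds back limb-level motor neuron identity there, read 74.1, 105 and 80.9 on the null arrays, against 121, 132 and 172 on the heterozygous arrays. The groups did not overlap, although null 2 came close to heterozygous 4. Its log2 level was 6.67 ± 0.22 over the null arrays and 7.29 ± 0.24 over the heterozygous arrays (SD, n = 3 each). The difference of −0.62 (SE 0.23, 95% interval −1.15 to −0.08) did not pass over all genes (adjusted p = 0.554, limma, exact permutation p = 0.1). Hoxc4, the gene at the 3′ end of this cluster, had separate groups too, with a difference of −0.77, which was −0.41 without null 1. Hoxc6 and Hoxc10, a gene of lumbar motor neurons, had differences of −0.32 and −0.40, and that of Hoxc10 was 0.11 without heterozygous 6.

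Heterozygous 6 was the highest of the 6 arrays for all 5 Hoxc genes tested, and null 1 was the lowest for 3 of them. The median deviation of the Hoxc genes from the heterozygous mean was −0.79, −0.12 and −0.62 on null arrays 1 to 3, against −0.17, −0.08 and 0.31 on heterozygous arrays 4 to 6. Null 2 thus lay within the range of the heterozygous arrays. Without null 1 and heterozygous 6 together, a choice made after these values were seen, the median difference of the Hoxc genes was −0.28, and that of all 23 Hox genes was −0.058.

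The summed signal of the nephric and Müllerian duct list was also lowest on null 1 and highest on heterozygous 6, but not every marker followed this order. Over the 4 markers of the nephric and Müllerian ducts with a probe set, the summed signal was 611, 2455 and 2618 on null arrays 1 to 3, against 2896, 4268 and 5771 on heterozygous arrays 4 to 6. Most of this sum came from Emx2 and Wt1. Of the 4 markers, Pax8 and Lhx1 were dim, at 2.99 and 0.961 on null 1. Pax8 was highest on null 3 (63.1, against 39.2 on heterozygous 6). Lhx1 was highest on heterozygous 4 (56.2, against 44.4 on heterozygous 6). Emx2, a homeobox gene of the urogenital ridge, read 101, 780 and 972 on the null arrays, against 1227, 1243 and 1582 on the heterozygous arrays (difference −1.59, adjusted p = 0.650, limma). Wt1, a zinc finger factor of the gonad and kidney, had separate groups too, with a difference of −1.30 (adjusted p = 0.583, limma). Its groups almost met, at 1585 on null 2 and 1588 on heterozygous 4. The genital tract list, with 6 of 9 markers on probe sets, summed to 638, 3487 and 3840 on the null arrays, against 2950, 3280 and 5211 on the heterozygous arrays. The estrogen receptor gene Esr1 in that list read 282 on null 1 and 2071 and 2499 on null 2 and null 3, against 2506 to 4627 on the heterozygous arrays. Of the other two genes tested in that list, the progesterone receptor gene Pgr overlapped between groups, with a difference of −0.77 (adjusted p = 0.791, limma). Spink1, a secreted trypsin inhibitor that pancreas and gut also make, went the other way, at 260, 1113 and 984 on the null arrays, against 21.6, 4.14 and 158 on the heterozygous arrays. Its difference of 3.74 did not pass over all genes (adjusted p = 0.207, limma), so the members of this list did not share a direction. Over 7 neuronal and glial markers the sum was 1963, 2354 and 4070 on the null arrays, against 3313, 4388 and 3750 on the heterozygous arrays. All 7 had a difference below 0, against 54.9% of all genes tested, with a median of −0.59. Of them 0 passed over all genes (adjusted p of at least 0.515, limma). The part of these tissues in the Hox differences was not tested.

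**Figure D3:**
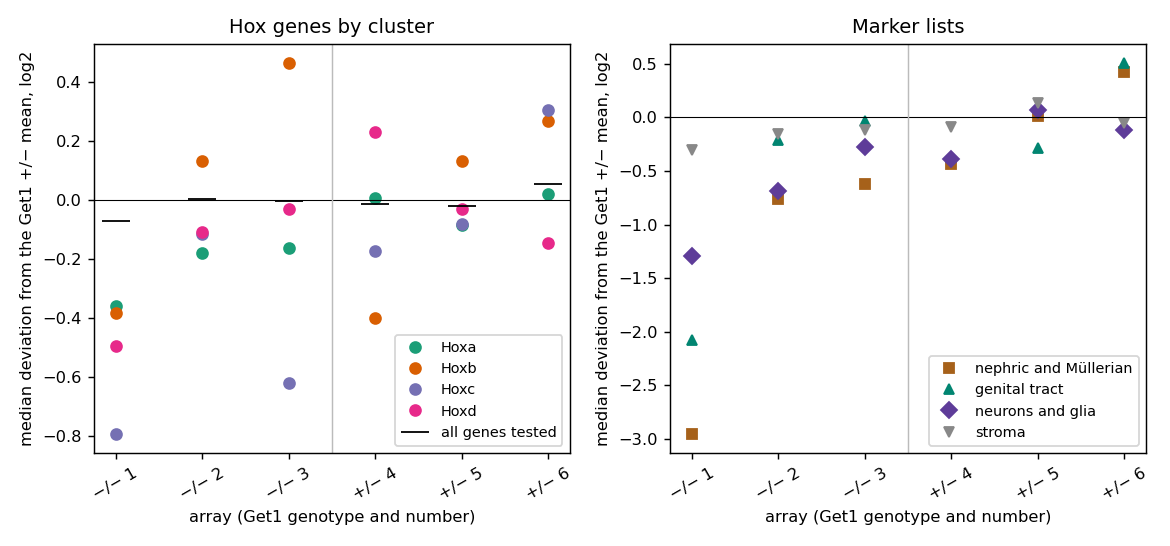
Median deviation from the Get1 +/- mean on the log2 scale (vertical axes) on each of the 6 arrays, null left of heterozygous, for the tested Hox genes of each cluster (left) and for 4 marker lists (right). The Hoxc median is −0.79 on null 1 and 0.31 on heterozygous 6, and the nephric and Müllerian markers are at −2.95 and 0.42 on the same arrays. Only tested genes enter the medians, which are 2 for the nephric and Müllerian list (Emx2 and Wt1) and 3 for the genital tract list.

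In the D cluster 6 of 8 genes with a probe set were tested, and 4 had a difference below 0 (median −0.23). The 5′ genes of this cluster are active in the genital tubercle, limb buds and posterior urogenital tissue of mouse embryos. Hoxd9 had a signal of 6357, 6303 and 7122 on the null arrays, against 8459, 9980 and 12104 on the heterozygous arrays. The groups were separate, with the null arrays close together and the heterozygous arrays spread. The log2 level was 12.69 ± 0.10 over the null arrays and 13.30 ± 0.26 over the heterozygous arrays (SD, n = 3 each), a 1.53-fold higher level in heterozygous bladders. The difference of −0.61 (SE 0.22, 95% interval −1.12 to −0.10) did not pass over all genes (adjusted p = 0.543, limma, exact permutation p = 0.1). With 1 array left out it stayed between −0.74 and −0.48, and it was −0.45 without both null 1 and heterozygous 6.

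Toward the 5′ end, Hoxd10 and Hoxd11 had differences of −0.35 and −0.40, and Hoxd11 had separate groups (adjusted p = 0.803 and 0.734, limma). Toward the 3′ end the signs turned. Hoxd8 had a difference of 0.18 with one probe set and 0.14 with the other (adjusted p = 0.941 and 0.971 in a fit of all 31526 probe sets above the dim filter, limma). Hoxd3, known for its role in the first neck vertebra, read 47.9, 159 and 220 on the null arrays, against 131, 79.5 and 72.2 on the heterozygous arrays. Null 1 was the lowest of all 6 arrays and null 2 and null 3 the highest, so the difference of 0.36 (95% interval −0.74 to 1.47, adjusted p = 0.918, limma) was 0.92 without null 1 and −0.023 without null 3. In the plot of levels by array, Hoxd9 and Hoxb13 have separate groups, while Hoxd3 and Hoxd13 overlap.

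**Figure D4:**
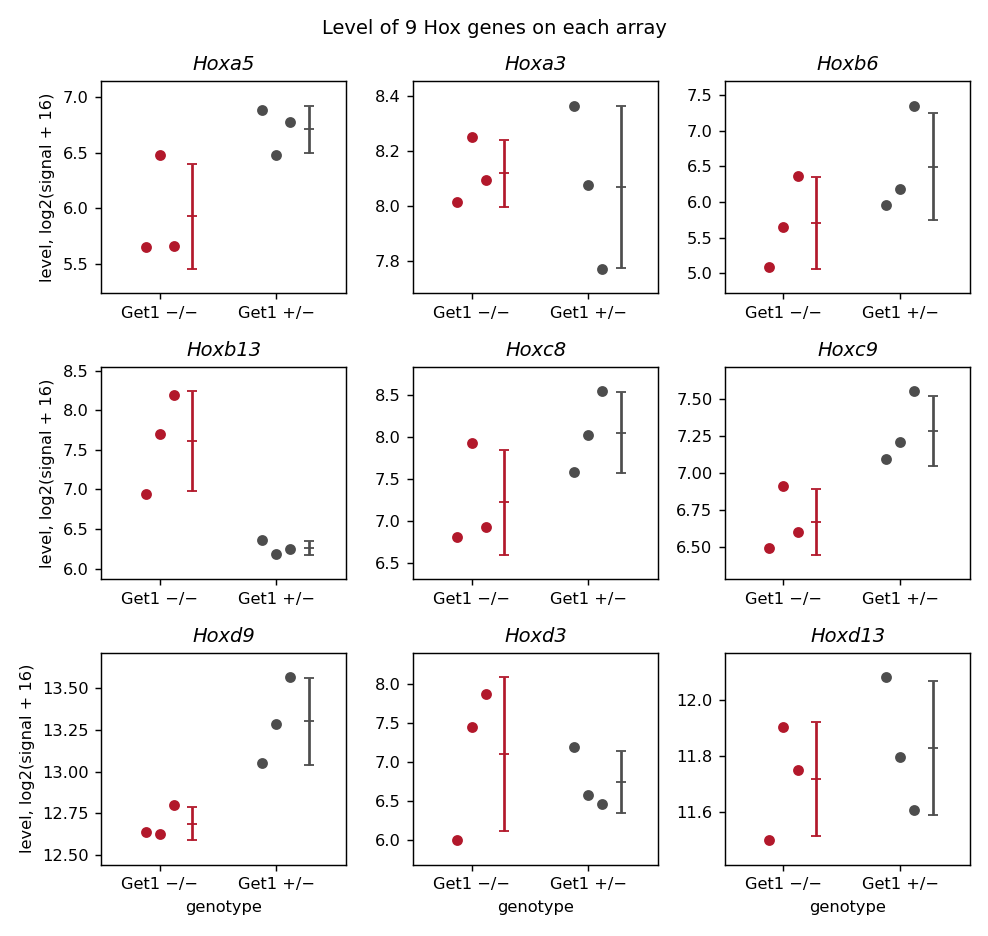
Log2 level (vertical axes, a separate scale in each panel) of 9 Hox genes on each array, Get1 -/- left and Get1 +/- right; points are arrays, and the bars beside them are the mean ± SD of 3 arrays. Hoxb13 is above, and Hoxc9 and Hoxd9 are below, the heterozygous arrays on every null array; the groups of the other 6 genes overlap.

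In the A cluster 6 of 9 genes with a probe set were tested, and 5 had a difference below 0 (median −0.25). Hoxa5, a gene of lung and gut mesenchyme, read 34.2, 73.1 and 34.7 on the null arrays, against 102, 73.1 and 93.7 on the heterozygous arrays. Null 2 and heterozygous 5 read the same to 3 digits, so the groups met there. The log2 level was 5.93 ± 0.47 over the null arrays and 6.71 ± 0.21 over the heterozygous arrays (SD, n = 3 each), a difference of −0.78 (95% interval −1.44 to −0.12, adjusted p = 0.543, limma). The name of this probe set marks it as one that may hybridise to further transcripts. The other Hoxa5 probe set read 55.6, 48.9 and 35.0 on the null arrays, against 69.0, 89.1 and 63.4 on the heterozygous arrays, with separate groups and a difference of −0.53 (adjusted p = 0.772 in a fit of all 31526 probe sets above the dim filter, limma).

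Hoxa9, Hoxa10 and Hoxa11, which pattern the reproductive tract and the limb, had differences of −0.18, −0.22 and −0.27 (adjusted p = 0.922, 0.888 and 0.873, limma). The probe sets of Hoxa9 did not give one size: the other one, which read 9.46 to 42.2 on the null and 52.4 to 76.3 on the heterozygous arrays, had a difference of −0.95 and separate groups (adjusted p = 0.684 in the fit of all probe sets, limma). Hoxa2, a gene of the pharyngeal arches, had a difference of −0.42. Hoxa3, needed for thymus and parathyroid, read 242, 289 and 257 on the null arrays, against 313, 254 and 202 on the heterozygous arrays. The null arrays lay within the range of the heterozygous ones, and the difference of 0.05 (95% interval −0.49 to 0.58) was −0.17 with another of its probe sets.

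In the B cluster 6 of 9 genes with a probe set were tested, and 3 had a difference below 0 (median −0.02). Beside Hoxb13, its nearest measured neighbour toward the 3′ end, Hoxb9, a gene of thoracic levels, had a difference of 0.56 (adjusted p = 0.760, limma), which was 0.20 without heterozygous 6. Hoxb6 read 18.1, 34.4 and 66.7 on the null arrays, against 46.3, 56.4 and 147 on the heterozygous arrays. Null 3 lay between heterozygous 5 and heterozygous 6, and the difference of −0.79 had an interval from −1.83 to 0.24 (adjusted p = 0.739, limma). Hoxb3, Hoxb4 and Hoxb5 had differences of −0.09, 0.02 and −0.06, and that of Hoxb5 ranged from −0.56 to 0.35 with 1 array left out. The median of this cluster was 0.26 without null 1, −0.25 without null 3 and −0.24 without heterozygous 4.

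By paralogue group, the 3 measured genes of group 10 (−0.40 to −0.22) and the 2 of group 11 (−0.40 and −0.27) all had differences below 0. So did the 2 genes tested of group 5 (−0.78 and −0.06), the 2 of group 6 (−0.79 and −0.32) and the 1 of group 2 (−0.42). In group 9, Hoxc9, Hoxd9 and Hoxa9 had differences of −0.62, −0.61 and −0.18, against 0.56 for Hoxb9. The 10 dim members read from 0.681 to 84.5 with a median of 22.0, and the groups were separate for 0 of them. Among all genes tested groups were separate for 7.36% (null lower) and 6.07% (null higher). This share was not counted for dim genes, so the 0 of 10 does not set these members apart. The dim members were Hoxa4, Hoxa7, Hoxa13, Hoxb1, Hoxb2, Hoxb7, Hoxc5, Hoxc13, Hoxd1 and Hoxd12, with differences between −0.51 and 0.63.

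Promoter sequence is shown for Hoxa5 and Hoxd9, the members with an unadjusted p under 0.05 that the RefSeq promoter table holds. It has no window for Hoxb13 or Hoxc9. Each window covers 250 bases before and 50 bases after the start of the gene in assembly GRCm38.p6, read 5′ to 3′ on the transcribed strand, with the 50 bases after the start in capitals. The Hoxa5 window is chr6:52204538-52204837 on the minus strand, and the Hoxd9 window is chr2:74697513-74697812 on the plus strand.
Hoxa5: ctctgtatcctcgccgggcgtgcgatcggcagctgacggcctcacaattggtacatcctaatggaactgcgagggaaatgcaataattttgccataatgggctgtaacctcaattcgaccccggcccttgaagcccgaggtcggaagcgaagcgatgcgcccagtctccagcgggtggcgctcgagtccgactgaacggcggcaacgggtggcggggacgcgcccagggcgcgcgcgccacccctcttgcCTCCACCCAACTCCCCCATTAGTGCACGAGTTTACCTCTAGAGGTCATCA
Hoxd9: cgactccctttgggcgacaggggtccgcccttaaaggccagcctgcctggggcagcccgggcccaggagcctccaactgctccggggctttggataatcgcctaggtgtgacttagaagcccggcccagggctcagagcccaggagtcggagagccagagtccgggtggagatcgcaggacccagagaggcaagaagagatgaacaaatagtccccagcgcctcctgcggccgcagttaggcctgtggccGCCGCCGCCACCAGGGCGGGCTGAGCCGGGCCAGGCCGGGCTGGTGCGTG
Both windows are rich in G and C, at 61.7% with 29 CG pairs for Hoxa5 and 68.3% with 20 CG pairs for Hoxd9. Over the 21 windows of 19 Hox members in the table the medians were 58.0% and 15 CG pairs, against 52.7% and 7 over all 32851 windows. The grainyhead-like motif AACCGGTT, searched on both strands, was in 0 of the 21 Hox windows and in 0.146% of all windows. The caudal motif TTTATGG, also searched on both strands, was in 0 of the 21 and in 2.75% of all windows. Both motifs are so rare over all windows that 0 of 21 does not set the Hox windows apart. The letters may occur outside the windows searched, and binding was not measured.

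Among the genes that act with or beside the Hox clusters, the caudal factor gene Cdx2 rose in null bladders. Cdx2, a ParaHox gene that sets posterior and intestinal identity, read 393, 603 and 284 on the null arrays, against 27.5, 3.09 and 3.70 on the heterozygous arrays, where it was dim. The groups were far apart, with a log2 difference of 4.06 (adjusted p = 0.00327, limma), whose size depends on the offset (2.67 with 64 and 5.64 with 1). Without both null 1 and heterozygous 6 it was 3.90 and missed the threshold (adjusted p = 0.113, limma). The other 5 ParaHox and caudal genes were dim and not tested. Of these, Cdx1 read 39.9, 39.1 and 29.0 on the null arrays, against 1.47, 6.95 and 1.02 on the heterozygous arrays.

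A further list held the Hox cofactor genes of the Pbx, Meis and Pknox families and the related homeobox genes Tgif1 and Tgif2. Of its 9 genes tested 0 passed over all genes (adjusted p of at least 0.757, limma) and 0 had an unadjusted p under 0.05. Their median difference was 0.09. Their smallest p values belonged to Tgif2 (−0.47), Meis1 (0.35), Pknox2 (−0.28) and Meis2 (−0.55). Of 15 Polycomb genes 0 passed, with a median of −0.13. In this list 1 gene had an unadjusted p under 0.05 with a lower level in null bladders, against 4.3% of all genes tested. This was Pcgf2, a component of Polycomb repressive complex 1, with a difference of −0.55 and separate groups (adjusted p = 0.590, limma). Eed, Ring1 and Cbx8 in that list had differences of 0.45, −0.45 and −0.45. Of 10 trithorax genes and partners 0 passed, 0 also at an unadjusted p under 0.05, with a median of 0.12, and Ash2l, Mllt3, Kmt2a and Rbbp5 had differences of 0.34, −0.24, 0.32 and 0.14.

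Genes that flank the clusters did not pass either, 0 of 12 tested, with a median of −0.03. At an unadjusted p under 0.05 there was 1 with a lower level, Evx1, against 4.3% of all genes tested. Evx1, a homeobox gene beyond the 5′ end of the A cluster, read 71.4, 110 and 139 on the null arrays, against 139, 244 and 277 on the heterozygous arrays. Null 3 met heterozygous 4, and the difference was −0.93 (adjusted p = 0.519, limma). The other neighbours with the smallest p values were Snx10 (−0.54), Hibadh (−0.30) and Mtx2 (0.43). Of 5 genes for axial signals tested 0 passed. Wnt5a, a ligand of posterior outgrowth (−1.04), was the 1 with an unadjusted p under 0.05, beside the same 4.3%. The list also held the retinoic acid synthesis gene Aldh1a2 at −0.59, Nr6a1 at 0.76 and the retinoic acid receptor gene Rarg at 0.31.

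Of 19 other transcription factors of hindgut, bladder and genital regions 0 passed over all genes (median −0.11, adjusted p of at least 0.417, limma). At an unadjusted p under 0.05, Osr2 and Hand2 were lower in null bladders, 2 of 19, against 4.3% of all genes tested. Osr2, Hand2 and Emx2 had every null array below every heterozygous array, 3 of 19, against 7.36% of all genes tested. Osr2, an odd-skipped factor of urogenital mesenchyme, read 19.7, 94.5 and 93.6 on the null arrays, against 145, 197 and 303 on the heterozygous arrays, with a difference of −1.56 (adjusted p = 0.417, limma). Null 1 was again the lowest and heterozygous 6 the highest array. Hand2, a basic helix-loop-helix factor of mesenchyme, had a difference of −0.78, and Pitx1, a hindlimb and posterior mesoderm factor, had a difference of 0.46 with separate groups. In that direction groups were separate for 1 of the 19, against 6.07% of all genes tested.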

How the data were processed

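RNA from 6 mouse bladder samples had been measured on arrays, and groups were read from the titles. The values the authors deposited are intensity summaries per probe set on a linear scale. The submitters' processing notes name Affymetrix Expression Console 1.1 and PLIER 2.0, without their roles, and background correction and normalization are not given in the sources used. Per the labels' protocols the labelled target was sense-strand DNA, while arrays with such probe set names usually take antisense RNA. This was not settled, so sense and antisense Hox transcripts may not be told apart. Upper quartiles of the arrays were 336 to 372, and the number of arrays limits the precision.

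The platform annotation gave 1 symbol for 34945 of 45101 probe sets and several for 932. Values were taken as log2(value + 16), with the probe set of highest mean over all 6 arrays for a gene. The dimmest 30% of genes (mean log2 under 5.80, a signal of 39.8) were left out. limma 3.58.1 in R 4.3.3 (lmFit, eBayes, two-sided, Benjamini-Hochberg, threshold 0.05), tested on simulated data, was run on all 12735 genes and called 57 higher and 8 lower. P values measure only the spread between these samples, which may be technical. The members, lists and alternatives were chosen with earlier results of these data known. Full array values are given for members with an unadjusted p under 0.05, for group 13, and for the largest difference each way per cluster, and up to 4 genes per list are those with the smallest p. Values printed for some further probe sets and genes were chosen after they were seen. Alternatives changed the offset, filter, probe sets, scaling, weights, variance model or arrays used. The marker lists of cartilage, skeletal muscle, skin and stroma had medians of −0.99, −0.11, −0.59 and −0.20, with 0 genes past the test. Of their 4, 6, 4 and 9 genes tested, 1, 0, 1 and 2 were lower at an unadjusted p under 0.05, against 4.3% of all genes tested.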

Additional observations from a re-analysis of the deposited data

How the results depend on the processing

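The count of called Hox genes was 0 in the main setting and in all 15 alternatives, and 352 single-gene comparisons of the 23 Hox genes, other probe sets included, kept an adjusted p above 0.05 and 328 kept their sign. Counts over all genes were 57 higher and 8 lower, against 35 and 5 with an offset of 1; with 1 array left out they were 38 to 54 and 5 to 9, with 5 lower without null 2 or heterozygous 5, and 5 lower without null 1 and heterozygous 6 together. The median of the Hox genes tested was −0.11 without a filter (33 genes) and −0.058 without null 1 and heterozygous 6 together, and −0.32 to −0.17 with 1 array left out. Without that pair the Hoxb median was 0.38 and the Hoxc median −0.28. The Hoxa median was −0.35 with probe sets averaged and −0.38 to −0.20 with 1 array left out; the ranges were −0.25 to 0.26 for Hoxb, −0.81 to −0.41 for Hoxc and −0.28 to −0.08 for Hoxd.

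The sign turned for 8 Hox genes. With probe sets averaged, Hoxa3 was at −0.14 and Hoxd13 at 0.26; with array weights, Hoxa3 was at −0.046, Hoxb3 at 0.0052 and Hoxb5 at 0.43. Without null 1 and heterozygous 6 together, Hoxa3 was at −0.047, Hoxa9 at 0.10, Hoxb3 at 0.070, Hoxb5 at 0.71 and Hoxc10 at 0.21. The second tested Hoxa3 probe set was at −0.17. With 1 array left out, the ranges were −0.10 to 0.20 (Hoxa3), −0.29 to 0.023 (Hoxa9), −0.31 to 0.10 (Hoxb3), −0.27 to 0.30 (Hoxb4), −0.56 to 0.35 (Hoxb5), −0.90 to 0.11 (Hoxc10), −0.22 to 0.017 (Hoxd13) and −0.023 to 0.92 (Hoxd3). Among list genes, probe set averaging turned Pknox2 (0.15), Eed (−0.20), Cbx8 (0.17), Ash2l (−0.035), Mllt3 (0.19) and Rarg (−0.055). Without the pair of arrays Meis2 was at 0.071, Mllt3 at 0.0077 and Kmt2a at −0.092, and Cdx2 missed the threshold (3.90, adjusted p = 0.113, limma). With 1 array left out Kmt2a ranged from −0.041, without heterozygous 6, to 0.65. The causes were not tested. Centring each array on its median moved the median of all genes to 0.02.

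No paired analysis was possible because the second numbers of the titles are 1 to 3 for null and 4 to 6 for heterozygous arrays, and the first number is 1 for null 1 alone and 2 for the other 5. What the first number marks is not stated. Signals under 39.8 limit what the 10 dim members can show.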
